A study of Mus musculus with 6 samples.

Results

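Integrin genes were followed in hearts of male Mdx/Utrn dKO mice, which lack dystrophin and its relative utrophin and are used as a model of Duchenne muscular dystrophy. The members are all rows of the gene table whose symbol starts with Itga or Itgb, which gave 31 of 50385 genes. They comprise 27 α and β chains of the receptor itself and 4 proteins named for binding or resembling a β chain. RNA of whole hearts was sequenced in 6 libraries, 3 from mice given corn oil (vehicle) and 3 from mice given setanaxib, an inhibitor of the NADPH oxidases Nox1 and Nox4, at 60 mg/kg daily by oral gavage. Treatment began at 2 to 3 months of age and lasted 12 weeks. Both groups carry the double knockout, and every comparison here is of drug with vehicle among such hearts, without a wild-type group.

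Integrins are membrane receptors made of 1 α and 1 β chain that tie the extracellular matrix or another cell to the actin cytoskeleton. The pair decides the ligand: α7β1 binds laminin, α5β1 binds fibronectin, α1β1 and α11β1 bind collagen, αv chains bind the RGD motif of matrix proteins and latent TGF-β, and the β2 chains are those of leukocytes. In striated muscle α7β1 stands beside the dystrophin complex as a laminin receptor, which is why integrins are studied where dystrophin and utrophin are missing. A count over a whole gene does not separate splice forms, so the muscle form of β1 and the α7 variants are not told apart here.

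Libraries held 110803307 to 154003318 estimated counts. Levels are given in CPM, a gene's estimated counts per 1000000 of its library after TMM scaling (trimmed mean of M values), and a fold change is setanaxib over vehicle on the log2 scale. The 8 cardiomyocyte markers were present in every library and summed to 34294 to 37879 CPM in vehicle hearts and 30156 to 40234 CPM under setanaxib. Setanaxib replicate 3 stood apart: 3 atrial myocyte markers summed to 2914 CPM there against 66.5 to 568 CPM in the other 5 libraries. Lung epithelium markers summed to 603 CPM against 0 to 19.6 CPM, and mesothelium markers to 30.4 CPM against 2.87 to 7.18 CPM.

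Muscle chains overlapped between the 2 groups, while several chains of fibroblasts and myeloid cells were lower with setanaxib without overlap. Of the 31 integrin rows, 30 held enough counts to be tested, and 23 of these were lower with setanaxib (76.7%, against 48.4% of all 20472 genes tested). The median log2 fold change was -0.25, against 0.01 over all genes tested. By edgeR's quasi-likelihood test with adjustment over all genes, 0 of 30 passed, where 0.00488% of all genes passed as lower and 0% as higher. At an unadjusted p under 0.05, 11 of 30 (36.7%) were lower and 0 were higher, where 4.69% of all genes were lower and 3.76% higher. All 3 setanaxib libraries lay below all 3 vehicle libraries for 12 of 30 (40.0%) and above them for 0, against 9.46% and 8.11% of all genes. The rows, classes and lists were chosen with earlier results of these data known, so such shares describe and do not test. DESeq2 called 4, Itgb6, Itga1, Itga5 and Itgbl1, all lower, where it called 1.45% of all genes lower and 0.86% higher, and limma-voom called 0.

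Itga1, Itga5, Itgax, Itgb2, Itgb6 and Itgbl1 had an unadjusted p under 0.05 in each of the 6 edgeR fits without 1 library. Of the other 5, Itga6, Itga9 and Itgam did so in 3 of the 6 fits, Itga11 in 2 and Itgb5 in 1. Without setanaxib replicate 3 there were 9 lower and 1 higher, the higher being Itgad, and the groups did not overlap for 16 lower and 2 higher rows. Non-overlap is easier to reach with 1 library fewer, and its share over all genes was not computed for such fits. Without vehicle replicate 2 there were 7 lower and 1 higher, the latter Itga2b. With library totals in place of TMM scaling there were 9 lower and 2 higher, Itga2b and Itgad.

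**Figure D1:**
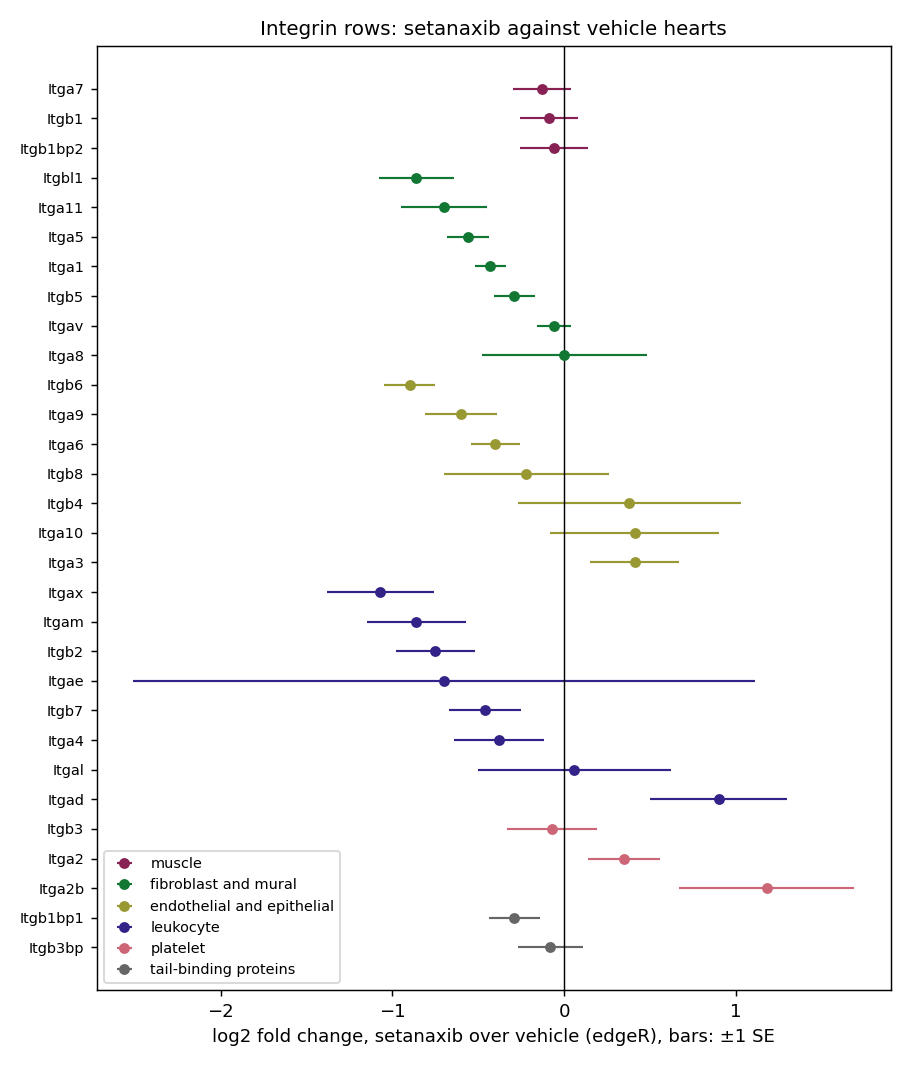
Log2 fold change of setanaxib over vehicle for the 30 tested integrin rows, ordered by class, with bars of 1 SE from edgeR. The 3 muscle rows lie within 0.13 of 0, and the lowest points are Itgax at -1.07, Itgb6 at -0.90 and Itgam and Itgbl1 at -0.86.

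Levels of different genes can be compared only per length, and here CPM was divided by the kilobases of merged exons of each gene. On this scale Itgb1 led with 45.7 CPM per kb with vehicle, followed by Itgb1bp2 at 32.0, Itgb5 at 26.1, Itga5 at 16.5 and Itga7 at 15.2. The vehicle libraries of Itga5 (14.9 to 18.0) and Itga7 (14.2 to 17.0) overlapped, so their order is not settled. With setanaxib Itga7, at 13.9 CPM per kb, stood above Itga5, at 11.2. Itga9, Itga6, Itga1 and Itgb2 followed at 7.89, 6.55, 4.34 and 4.19 CPM per kb with vehicle, and the 7 tested rows from Itgal down were all at 0.400 CPM per kb or less.

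**Figure D2:**
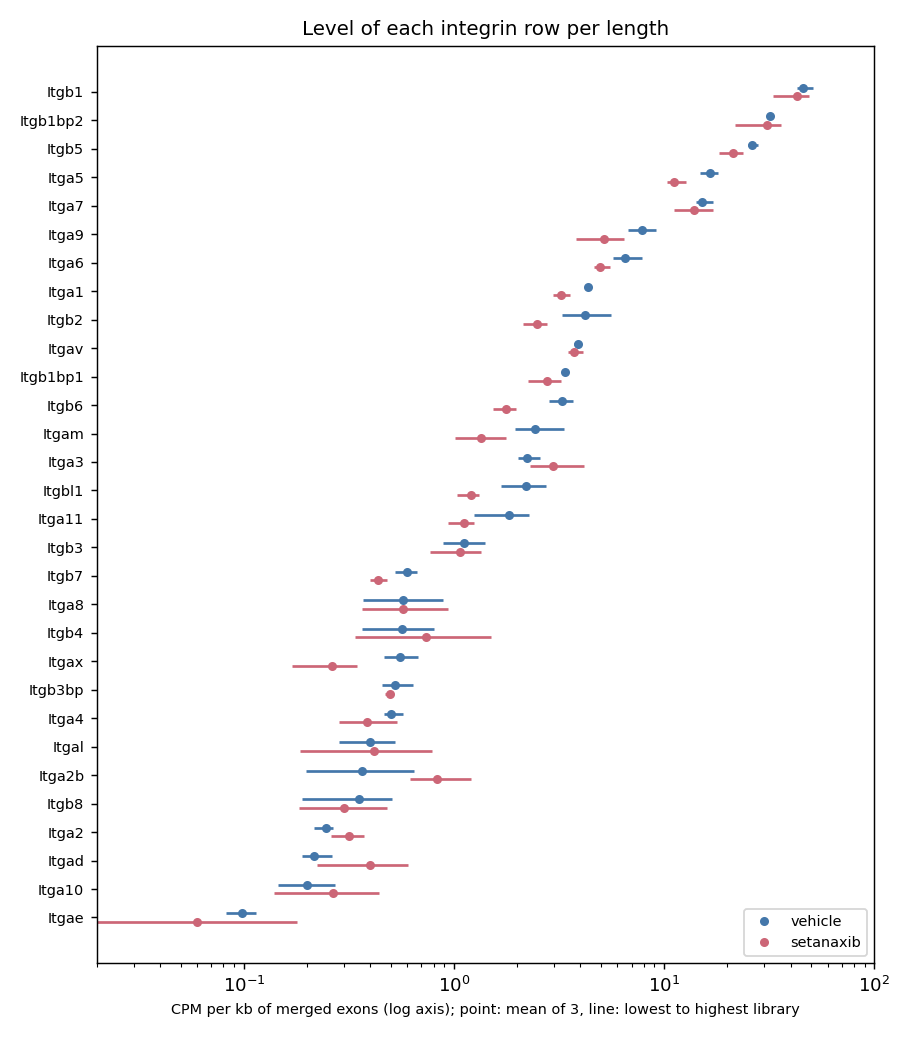
CPM per kb of merged exons on a log axis for the 30 rows above 0 with vehicle, with the mean of 3 libraries as a point and the lowest to highest library as a line. Itgb1 heads the order in both groups, and the setanaxib line of Itgae runs to the axis edge because 2 libraries are listed at 0.

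The muscle class overlapped between the groups. Itga7, the laminin-binding α chain of striated muscle, was at 116, 138 and 115 CPM in vehicle replicates 1, 2 and 3 and at 108, 138 and 90.7 CPM in setanaxib replicates 1, 2 and 3. The groups overlapped, and the log2 fold change was -0.13 (SE 0.17, edgeR adjusted p = 0.899). Itgb1, the β chain that α7 and most matrix-binding α chains share, was at 178, 208 and 175 CPM in vehicle hearts and at 199.5, 192 and 134 CPM under setanaxib. Only setanaxib replicate 3 lay below the vehicle libraries, and the log2 fold change was -0.09 (SE 0.17, edgeR adjusted p = 0.933). Itgb1bp2 encodes melusin, a muscle chaperone that binds the β1 tail. It was at 57.6, 58.7 and 56.6 CPM in vehicle hearts and at 62.3, 64.8 and 39.0 CPM under setanaxib (log2 fold change -0.06, SE 0.20, edgeR adjusted p = 0.969). Setanaxib replicates 1 and 2 were above all vehicle libraries and replicate 3 below them. Without replicate 3 the log2 fold changes were 0.01 for Itga7, 0.07 for Itgb1 and 0.15 for Itgb1bp2, which turned the sign of all 3. The cardiomyocyte marker sum was likewise lowest in setanaxib replicate 3, at 30156 CPM.

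The ratio of Itga7 to Itgb1 in CPM was 0.651, 0.664 and 0.656 with vehicle and 0.540, 0.718 and 0.676 with setanaxib. Its log2 mean was -0.61 ± 0.01 (SD, n = 3) with vehicle and -0.64 ± 0.22 with setanaxib, a difference of -0.04 (exact permutation test over libraries, two-sided p = 1). The ratio of Itga5 to Itga7 was 0.637, 0.645 and 0.711 with vehicle and 0.479, 0.455 and 0.559 with setanaxib, with no overlap and a log2 difference of -0.42. For that ratio the two-sided exact permutation p was 0.1, the smallest that 3 against 3 can give, and 0.5 after adjustment over the 10 ratios computed. Itga5 to Itgb1 gave the same p and adjusted p, with ratios of 0.415, 0.428 and 0.467 against 0.259, 0.326 and 0.378. This permutation test therefore cannot pass the threshold for any ratio with 3 libraries a group.

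Of the matrix-binding chains of fibroblasts and vessel-wall cells, Itga1, Itga5, Itgb5 and Itgbl1 were lower without overlap, and Itgav, Itga8 and Itga11 overlapped between the groups. All 7 rows of the class had a log2 fold change below 0 (median -0.43), Itga8 only beyond the printed digits. Lower at an unadjusted p under 0.05 were 5 of 7 (71.4%), against 4.69% of all genes tested. Lower without overlap were 4 of 7 (57.1%), against 9.46%, while 0 passed adjustment in edgeR. That count of 5 was 3 without vehicle replicate 1 or 3, without setanaxib replicate 1 or 3, and with library totals. Their summed level was 311, 318 and 329 CPM in vehicle hearts and 226, 265 and 246 CPM under setanaxib, without overlap. The class was chosen with earlier results of these data known.

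Itga5 encodes the α chain of the fibronectin receptor. It was at 73.6, 88.9 and 81.5 CPM in the vehicle libraries and at 51.6, 62.8 and 50.7 CPM in the setanaxib libraries. The highest setanaxib library lay below the lowest vehicle library, and the means were 81.3 ± 7.64 and 55.0 ± 6.74 CPM (SD, n = 3). The log2 fold change was -0.56 (SE 0.12), with an adjusted p of 0.356 in edgeR and 0.00454 in DESeq2. Itga1, a collagen-binding α chain, had closely spaced vehicle libraries, at 82.2, 79.8 and 80.2 CPM, against 59.0, 66.2 and 54.8 CPM under setanaxib. Its log2 fold change was -0.43 (SE 0.09), with an adjusted p of 0.360 in edgeR and 0.00320 in DESeq2. Itgbl1, a secreted protein built of the repeats found in β chains, was at 9.09, 7.04 and 11.7 CPM in vehicle hearts and 4.34, 5.38 and 5.54 CPM under setanaxib. All setanaxib libraries were lower, with a log2 fold change of -0.86 (SE 0.22) and an adjusted p of 0.396 in edgeR and 0.0242 in DESeq2.

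Itgb5, which pairs with αv as a vitronectin receptor, was at 89.4, 90.1 and 99.2 CPM in vehicle hearts and at 64.6, 84.3 and 78.2 CPM under setanaxib. The groups were apart by a small gap and the log2 fold change was -0.29 (SE 0.12, edgeR adjusted p = 0.588). Itga11, a collagen-binding α chain of fibroblasts, was at 9.83, 6.42 and 11.7 CPM in vehicle hearts and 4.8, 6.43 and 5.96 CPM under setanaxib. Vehicle replicate 2 and setanaxib replicate 2 met, and the log2 fold change was -0.70 (SE 0.25, edgeR adjusted p = 0.529). Itgav itself, the αv chain, overlapped between groups (37.4 to 44.2 CPM over all 6 libraries, log2 fold change -0.06, SE 0.10). Itga8, an RGD-binding chain of smooth muscle, was at 2.70 to 6.87 CPM with a log2 fold change of 0.00 (SE 0.48), or -0.54 without setanaxib replicate 3, its highest library.

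Markers of the cells in question moved as follows. Of 8 fibroblast markers, Col3a1, Lum and Col1a1 had an unadjusted edgeR p under 0.05, all lower, with log2 fold changes of -0.94, -0.57 and -0.92. Over all genes tested, 4.69% were lower at that p. The identity markers Pdgfra (-0.26) and Tcf21 (-0.03) overlapped between groups. The fibroblast sum was 1659.5 to 2361 CPM in vehicle hearts and 1416 to 2632 CPM under setanaxib, and overlapped. Smooth muscle and pericyte markers summed to 769.8 to 926 CPM in vehicle hearts and 561 to 829 CPM under setanaxib, and these sums overlapped. All 7 had log2 fold changes below 0, against 48.4% of all genes tested. Lower without overlap were 4 of 7 (57.1%, against 9.46%), Notch3, Cspg4, Pdgfrb and Kcnj8. Of these, Notch3 and Cspg4 had an unadjusted edgeR p under 0.05 (28.6% of the 7, against 4.69%). In bulk tissue, fewer cells of a type and less RNA per cell cannot be told apart, and the part of cell number in these integrin levels was not tested.

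Itga5 and Itgb6 are shown by their start-site sequence, because Itga5 had the highest level per kb of the α chains whose groups were apart and Itgb6 the lowest p of all integrin rows. Each is the RefSeq window from 250 bases before to 50 bases after an annotated gene start on GRCm38.p6, 5′ to 3′ on the gene's strand. Capitals mark GAGGAA or its reverse complement TTCCTC, the core bound by PU.1, a myeloid transcription factor. Of all 32851 RefSeq windows of 300 bases, 28.3% hold GAGGAA on either strand. RefSeq lists 2 starts for Itgb6.
Itga5, chr15:103366742-103367041, minus strand: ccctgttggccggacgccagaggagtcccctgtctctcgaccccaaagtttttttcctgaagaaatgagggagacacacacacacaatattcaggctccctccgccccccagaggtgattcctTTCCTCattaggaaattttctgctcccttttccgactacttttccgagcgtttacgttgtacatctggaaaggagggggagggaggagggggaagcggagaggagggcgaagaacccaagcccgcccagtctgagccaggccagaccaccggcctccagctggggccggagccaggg
Itgb6, chr2:60673644-60673943, minus strand: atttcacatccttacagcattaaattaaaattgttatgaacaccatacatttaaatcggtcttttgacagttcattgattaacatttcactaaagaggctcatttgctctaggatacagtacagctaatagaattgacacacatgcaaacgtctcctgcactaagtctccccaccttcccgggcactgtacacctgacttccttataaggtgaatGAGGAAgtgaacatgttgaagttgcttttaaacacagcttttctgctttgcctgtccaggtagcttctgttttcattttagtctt
Itgb6, chr2:60722554-60722853, minus strand: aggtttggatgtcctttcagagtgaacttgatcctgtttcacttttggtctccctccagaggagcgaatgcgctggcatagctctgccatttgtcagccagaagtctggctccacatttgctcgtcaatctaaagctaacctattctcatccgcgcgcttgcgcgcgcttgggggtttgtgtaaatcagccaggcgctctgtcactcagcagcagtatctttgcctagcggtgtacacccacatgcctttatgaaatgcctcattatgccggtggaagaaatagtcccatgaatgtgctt
The match lies at position -127 in Itga5 and at position -35 in the first Itgb6 window, counted from the start site, and the second Itgb6 window holds none. A match describes these letters only, and the deposited data do not say which start is used.

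Itgb6 encodes the β6 chain, which pairs with αv, is best known from epithelium and activates latent TGF-β. It was at 23.6, 26.3 and 20.1 CPM in the vehicle libraries and at 11, 12.5 and 14.1 CPM in the setanaxib libraries. The groups were well apart, at 23.4 ± 3.07 and 12.5 ± 1.55 CPM (SD, n = 3), a level 46.4% lower by the fitted fold change. The log2 fold change was -0.90 (SE 0.15), with an adjusted p of 0.234 in edgeR and 1.6e-05 in DESeq2, and lay between -1.0 and -0.81 in the 6 fits without 1 library. The lung epithelium sum was highest in setanaxib replicate 3, where Scgb1a1 alone gave 598 of 603 CPM. Itgb6 was at 14.1 CPM in that library, its highest setanaxib level but below every vehicle library. In vehicle replicate 2 the lung epithelium sum was 0 and Itgb6 was at 26.3 CPM, its highest level. Whether lung tissue contributed to Itgb6 was not tested. Among β chains that pair with αv, Itgb6 made up 4.54%, 4.53% and 3.77% of the summed CPM per kb with vehicle and 2.21%, 2.38% and 3.37% with setanaxib. Itgb1 took 59.6 ± 2.73% and Itgb5 34.2 ± 3.04% of that sum with vehicle (SD, n = 3), and 63.3 ± 7.13% and 31.9 ± 5.68% with setanaxib.

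Other chains of endothelium and epithelium split. Itga6, a laminin-binding chain of endothelium and epithelium, was at 55.3, 70.5 and 51.6 CPM in vehicle hearts and 42.8, 42.0 and 49.8 CPM under setanaxib. Itga9, which binds tenascin and VCAM1, was at 60.3, 70.2 and 51.7 CPM in vehicle hearts and 49.4, 41.4 and 29.1 CPM under setanaxib. In both, all setanaxib libraries were below all vehicle libraries after TMM scaling. The log2 fold change was -0.40 for Itga6 (SE 0.14, edgeR adjusted p = 0.535) and -0.60 for Itga9 (SE 0.21, edgeR adjusted p = 0.530), or -0.42 for Itga9 without setanaxib replicate 3. With library totals in place of TMM scaling, the unadjusted edgeR p was 0.124 for Itga6 and 0.0033 for Itga9. Overlap was assessed on TMM-scaled levels only. Endothelial markers summed to 692 to 766 CPM in vehicle hearts and 524 to 681 CPM under setanaxib, also without overlap. Of those 6 markers only Kdr was apart between groups (log2 fold change -0.64), and Pecam1 had 0.06.

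Itga3, Itgb4 and Itga10 were highest in setanaxib replicate 3. Itga3, a laminin-binding chain of epithelium, reached 23.7 CPM there against 11.5 to 14.6 CPM in the other 5 libraries. Itgb4, the hemidesmosome partner of α6, reached 10.6 CPM against 2.37 to 5.66 CPM, and Itga10, a chain known from cartilage, 2.29 CPM, also its highest level. That is the library in which lung epithelium and mesothelium markers were highest. Without it the log2 fold change of Itga3 went from 0.41 to 0.09, that of Itgb4 from 0.38 to -0.69 and that of Itga10 from 0.41 to -0.17. Itgb8, another partner of αv, ranged over 2.03 to 5.59 CPM with overlapping groups.

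**Figure D3:**
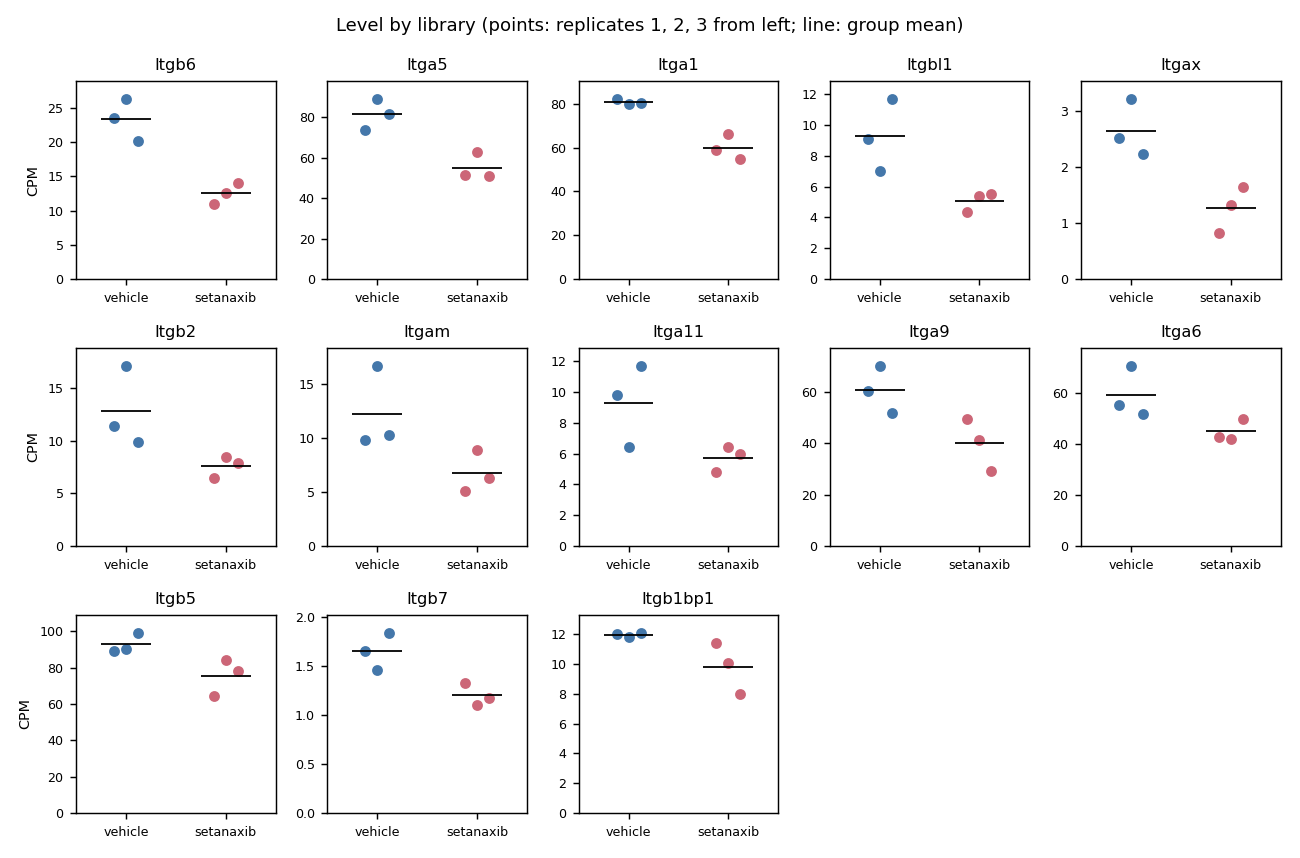
CPM by library for the 13 integrin rows with an unadjusted edgeR p under 0.05 or with groups that do not overlap, from lowest to highest p, each axis starting at 0 and each line the group mean. In 12 of the 13 panels every setanaxib point lies below every vehicle point, and in Itga11 the groups meet at 6.42 and 6.43 CPM.

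Taken by share, the α chains that can pair with β1 were led by Itga5 and Itga7. Itga5 made up 25.9%, 27.8% and 29.0% of their summed CPM per kb with vehicle and 22.6%, 24.7% and 22.6% with setanaxib. The 2 groups were apart. They were apart also for Itga3 and Itga2, whose shares were higher with setanaxib. Itga3 made up 4.44%, 3.09% and 3.65% with vehicle and 5.16%, 4.47% and 9.16% with setanaxib. For Itga2 the shares were 0.373%, 0.409% and 0.457% with vehicle and 0.805%, 0.507% and 0.692% with setanaxib. Itga7 made up 24.8%, 26.2% and 24.8% with vehicle and 28.8%, 33.1% and 24.7% with setanaxib, which overlapped through setanaxib replicate 3. The sum over these 12 chains was 57.7, 65.0 and 57.1 CPM per kb with vehicle and 46.3, 51.6 and 45.4 with setanaxib. The summed α chains were thus lower in every setanaxib library, while the β1 chain itself overlapped between groups.

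**Figure D4:**
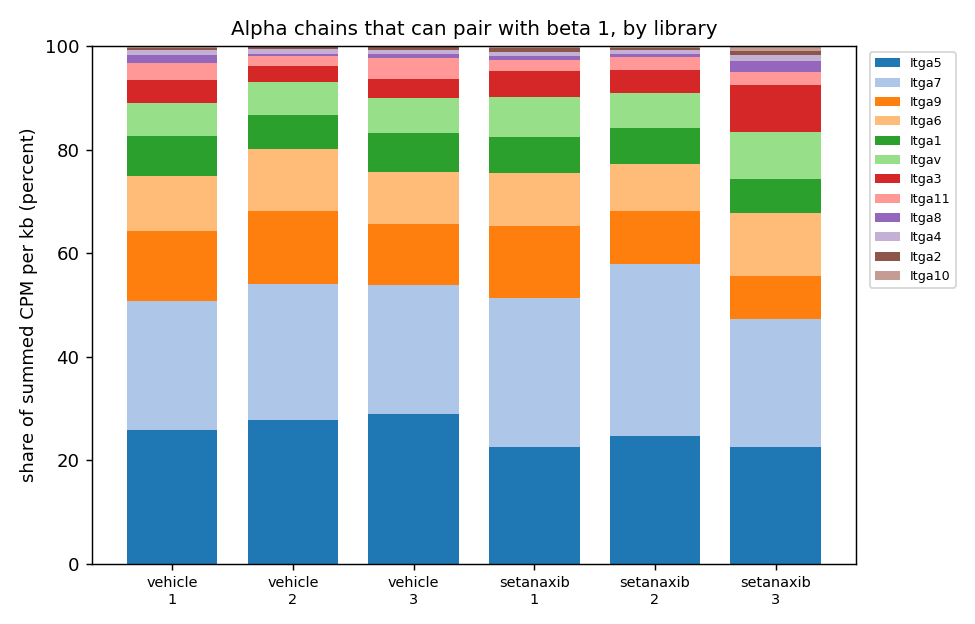
Share of each of 12 α chains in their summed CPM per kb, in percent, for each library as a stacked bar. Itga5 is 27.5 ± 1.54% with vehicle and 23.3 ± 1.19% with setanaxib (SD, n = 3), and Itga3 is widest in setanaxib replicate 3, at 9.16%.

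Among leukocyte chains Itgb2, Itgam, Itgax and Itgb7 were lower in every setanaxib library than in any vehicle library, and the others overlapped or were not tested. Of 9 rows, 8 were tested. A log2 fold change below 0 was found for 6 of 8 (median -0.58), against 48.4% of all genes tested. Lower at an unadjusted edgeR p under 0.05 were 3 of 8, against 4.69% of all genes tested. Lower without overlap were 4 of 8, against 9.46%. At that p or without overlap 0 rows were higher, and 0 passed adjustment in edgeR, DESeq2 or limma-voom. This class too was chosen with earlier results of these data known. Itgb2, the common β chain (CD18), was at 11.4, 17.1 and 9.92 CPM in vehicle hearts and 6.48, 8.46 and 7.91 CPM under setanaxib. All setanaxib libraries were below the vehicle libraries, of which replicate 2 was the highest (log2 fold change -0.75, SE 0.23, edgeR adjusted p = 0.472). Itgam (CD11b), the α chain of the complement receptor of macrophages and neutrophils, was at 9.82, 16.7 and 10.3 CPM in vehicle hearts and 5.06, 8.89 and 6.29 CPM under setanaxib. It showed the same high vehicle replicate 2 (log2 fold change -0.86, SE 0.29, edgeR adjusted p = 0.508) and had an unadjusted p under 0.05 in 3 of the 6 fits without 1 library. Itgax (CD11c), found on dendritic cells and macrophages, was at 2.52, 3.22 and 2.23 CPM in vehicle hearts and 0.818, 1.33 and 1.65 CPM under setanaxib. It was the integrin with the most negative log2 fold change of the 30 tested, -1.07 (SE 0.31, edgeR adjusted p = 0.451). Itgb7, which pairs with α4 and αE on lymphocytes, was at 1.65, 1.46 and 1.84 CPM in vehicle hearts and 1.33, 1.1 and 1.17 CPM under setanaxib (log2 fold change -0.46, SE 0.21, edgeR adjusted p = 0.623).

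Start-site windows of Itgam and Itgax are shown because these neighbouring leukocyte rows were lower together and differ in the motif. The source, build and capitals are as for Itga5.
Itgam, chr7:128062390-128062689, plus strand: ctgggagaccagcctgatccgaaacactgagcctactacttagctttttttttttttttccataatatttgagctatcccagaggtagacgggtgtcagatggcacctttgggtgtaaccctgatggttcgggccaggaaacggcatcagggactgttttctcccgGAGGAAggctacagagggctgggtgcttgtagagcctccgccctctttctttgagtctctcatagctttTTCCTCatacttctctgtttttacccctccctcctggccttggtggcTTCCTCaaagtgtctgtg
Itgax, chr7:128129300-128129599, plus strand: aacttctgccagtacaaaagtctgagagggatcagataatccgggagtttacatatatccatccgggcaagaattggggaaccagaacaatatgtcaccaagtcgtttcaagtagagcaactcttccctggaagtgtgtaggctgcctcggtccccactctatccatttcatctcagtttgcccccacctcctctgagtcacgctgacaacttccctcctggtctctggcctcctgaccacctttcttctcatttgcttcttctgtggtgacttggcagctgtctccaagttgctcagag
Itgam holds 3 matches, at positions -84, -15 and 33, and Itgax holds 0 in this window. Of all windows, 4.82% hold 2 or more matches. Windows were found for 22 of the 31 integrin symbols, 24 windows in all. Of these 24, 10 hold a match, where 28.3% of all windows do. The other leukocyte windows found hold 0 matches for Itga4, 1 for Itgb7 and 2 for Itgb2l.

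The remaining leukocyte chains overlapped between groups. Itga4, the VCAM1 receptor of mononuclear cells, was at 3.97 to 7.95 CPM, lowest in setanaxib replicates 1 and 2 (log2 fold change -0.38, SE 0.26). Itgal (CD11a), the α chain of LFA-1 on lymphocytes and myeloid cells, was at 2.57, 3.44 and 1.87 CPM in vehicle hearts and 1.22, 1.82 and 5.18 CPM under setanaxib. Setanaxib replicate 3 was the highest of all 6 libraries and the other setanaxib libraries the lowest, so the log2 fold change of 0.06 (SE 0.56) was -0.79 without it. T and NK cell markers summed to 1.21 CPM in that library against 0.11 to 0.329 CPM, with Cd3e, Cd3g, Nkg7 and Klrb1c at 0 in all libraries. Itgae (CD103) was at 0.445, 0.376 and 0.522 CPM in vehicle hearts and 0.826 CPM in setanaxib replicate 1, and is listed at 0 in setanaxib replicates 2 and 3. Itgb2l was listed at 0 in 5 libraries, with 66 estimated counts in setanaxib replicate 3, and was the row not tested.

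Itgad, the α chain of a β2 integrin of tissue macrophages, was one of 7 rows with a log2 fold change above 0. It was at 0.857, 0.856 and 1.19 CPM in vehicle hearts and 2.72, 1.70 and 1.0 CPM under setanaxib (log2 fold change 0.90, SE 0.40, edgeR adjusted p = 0.618). Setanaxib replicate 3 lay within the vehicle range. Its exons overlap those of Cox6a2, a muscle respiratory subunit on the opposite strand at 1247 to 1697 CPM, and of 4931431B13Rik, at 6.38 CPM in setanaxib replicate 1 and 0.774 to 1.57 CPM elsewhere. Without the strand setting of the counting, reads of such neighbours cannot be told apart. The β2 partner sum was 63.9%, 70.6% and 66.9% Itgam with vehicle and 51.3%, 65.6% and 48.0% with setanaxib, per kb. Itgax made up 17.2%, 14.2% and 15.2% against 8.66%, 10.3% and 13.2%, with no overlap. Such a share also depends on the other chains in the sum. Itgad made up 30.7% in setanaxib replicate 1 and Itgal 30.2% in setanaxib replicate 3. The ratio of Itgax to Itgb2 in CPM was 0.222, 0.189 and 0.225 with vehicle and 0.126, 0.157 and 0.209 with setanaxib, which overlapped (two-sided exact permutation p = 0.2).

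General leukocyte markers and most macrophage markers were lower alongside these chains. All 6 general leukocyte markers were lower without overlap, 5 at an unadjusted edgeR p under 0.05. Over all genes tested, 9.46% were lower without overlap and 4.69% lower at that p. The 6 markers summed to 121 to 178 CPM in vehicle hearts and 61.9 to 83.9 CPM under setanaxib. Macrophage markers summed to 342 to 438 CPM in vehicle hearts and 219 to 276 CPM under setanaxib, 9 of 10 without overlap, Cd163 being the exception at 0.14. Dendritic cell markers summed to 25 to 26.7 CPM in vehicle hearts and 16.9 to 24.3 CPM under setanaxib. Most of that sum was Zbtb46, which was lower without overlap (log2 fold change -0.46). Clec9a (-0.20), Cd209a (-0.08) and Flt3 (-0.02) overlapped between groups. Neutrophil markers also overlapped, at 2.43 to 9.27 CPM. The ratio of Itgb2 to Ptprc, the pan-leukocyte marker CD45, was 0.656, 0.803 and 0.540 with vehicle and 1.27, 0.750 and 0.620 with setanaxib (log2 difference 0.35, two-sided exact permutation p = 0.5). Relative to Ptprc the groups overlapped, but this test cannot give a p under 0.1 with 3 libraries a group. The part of leukocyte number in the level of Itgb2 was not tested.

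**Figure D5:**
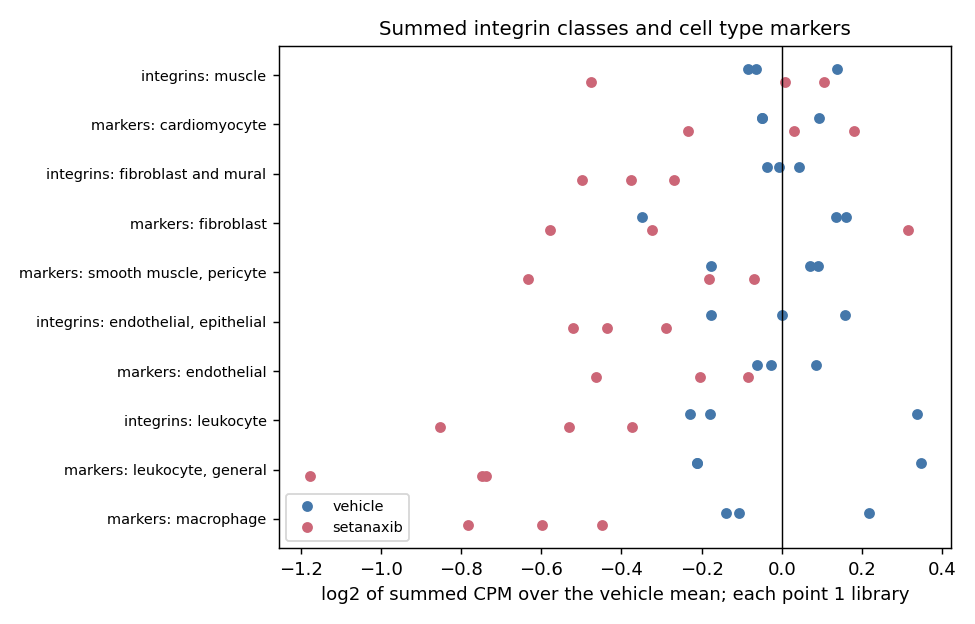
Log2 of summed CPM over the vehicle mean, 1 point per library, for 4 integrin classes and 6 marker lists. Leukocyte and macrophage markers lie apart between groups as does the leukocyte integrin sum, at 34.5 to 51.1 CPM in vehicle hearts and 22.4 to 31.2 CPM under setanaxib, while the muscle integrin sum overlaps.

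Platelet chains were low and did not follow the rest. Itga2b, the αIIb chain of platelets and megakaryocytes, was at 1.08, 3.52 and 1.39 CPM in vehicle hearts and 6.53, 3.35 and 3.69 CPM under setanaxib. Vehicle replicate 2 overlapped the setanaxib libraries, and the log2 fold change was 1.18 (SE 0.51, edgeR adjusted p = 0.615), or 1.87 without vehicle replicate 2. Platelet markers summed to 6.40 to 21.3 CPM in vehicle hearts and 9.72 to 12.9 CPM under setanaxib, highest in that same vehicle replicate 2. Itgb3, the β chain of αIIb and αv, was at 5.22, 8.30 and 6.32 CPM in vehicle hearts and 4.56, 6.48 and 7.91 CPM under setanaxib (log2 fold change -0.07, SE 0.26). Its order over the libraries was mixed between the groups. Itga2, a collagen receptor of platelets and epithelium, was at 1.53 to 2.66 CPM (log2 fold change 0.35, SE 0.21).

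Of the other proteins named for β tails, Itgb1bp1 encodes ICAP-1, which competes with talin for the β1 tail. It was at 12.0, 11.8 and 12.1 CPM in vehicle hearts and 11.4, 10.1 and 7.98 CPM under setanaxib, without overlap. The log2 fold change was -0.29 (SE 0.15, edgeR adjusted p = 0.682), or -0.15 without setanaxib replicate 3. Its exons overlap Asap2 and Cpsf3 on the opposite strand, and Asap2 was also lower (log2 fold change -0.38). Itgb3bp, a centromere protein that also carries a β3-binding name, was at 2.10, 2.94 and 2.21 CPM in vehicle hearts and 2.35, 2.33 and 2.19 CPM under setanaxib, which overlapped. Its exons overlap Pgm1 on the opposite strand, at 101 to 146 CPM, whose reads cannot be told apart without the strand setting. In all, exons of 11 of the 31 rows overlap another annotated gene. For Itga7, Itga1, Itgam, Itga8 and Itga4 these neighbours were at 0.875 CPM or less in every library.

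Among ligands of these receptors, 9 of 11 laminin chains were tested, 6 lower and 3 higher (median log2 fold change -0.14). Lamb3, a laminin chain of epithelial basement membranes, was at 5.26, 4.74 and 6.48 CPM in vehicle hearts and 9.88, 9.79 and 14.2 CPM under setanaxib. All setanaxib libraries were above all vehicle libraries (log2 fold change 1.04, SE 0.21, edgeR adjusted p = 0.314, DESeq2 0.00136). Lama3, an α chain found in the same membranes, overlapped (log2 fold change -0.14, SE 0.19). Lamc1 and Lamb1, chains of the main heart laminins, had log2 fold changes of -0.16 each. Lamc1 was lower without overlap, and Lamb1 overlapped between the groups.

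RGD-type and matrix ligands were lower in 12 of 14 tested genes (85.7%, median log2 fold change -0.57), against 48.4% of all genes tested. Lower at an unadjusted p under 0.05 were 6 (42.9%), against 4.69%. Lower without overlap were 8 (57.1%), against 9.46%. This list too was chosen with earlier results of these data known, so its shares are a description only. DESeq2 called 4 of the 14, Postn, Fbn1, Tgfb1 and Tnc, all lower, where it called 1.45% of all genes lower. Tnc, the tenascin that α9β1 binds, was at 26.6, 37.9 and 27.4 CPM in vehicle hearts and 5.36, 13.4 and 2.01 CPM under setanaxib (log2 fold change -2.15, SE 0.65, edgeR adjusted p = 0.464). It was far apart between groups, as was Postn, the periostin ligand of αv integrins (-1.48). Tgfb1 and Tgfb3, whose latent forms αvβ6 opens, had log2 fold changes of -0.54 and -0.73. Vtn, the vitronectin that αvβ5 binds, was at 13.1, 15.7 and 11.5 CPM in vehicle hearts and 9.07, 10.8 and 6.71 CPM under setanaxib (log2 fold change -0.61, SE 0.21).

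Proteins that link integrins to actin, the adhesome, gave 0 calls. Of 32 genes 31 were tested, 22 lower and 9 higher, with a median log2 fold change of -0.14 and 0 past edgeR's threshold or DESeq2's. At an unadjusted p under 0.05 Vasp and Flnc were lower (6.45%) and Tns2 higher, where 4.69% of all genes tested were lower and 3.76% higher. Flnc, the muscle filamin, was at 815, 1103 and 867 CPM in vehicle hearts and 651, 742 and 468 CPM under setanaxib (log2 fold change -0.58, SE 0.21). Vasp, an actin-filament elongator, had -0.66 (SE 0.22), and the tensin Tns2 had 0.39 (SE 0.16). All setanaxib libraries were below all vehicle libraries for 7 of the 31 (22.6%, against 9.46% of all genes tested). Among them were Kank2 (-0.20), the α-actinin Actn1 (-0.27) and the talin Tln1 (-0.27).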

How the data were processed

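RNA-seq of 6 heart libraries, 3 per group, was compared. The deposited table holds whole-number estimated counts, whose totals differ between libraries. The submitters' processing notes name GRCm39 and list DESeq2 1.42.0, featureCounts 2.0.1, STAR 2.5.4b and FastQC 0.11.9, with no step assigned to any. Each library holds 30 to 40 values of 1 but 157 to 188 values of 2, which direct tallies would not give, and the row names have the form of StringTie output. The sources used here do not give a strand setting. The design had assumed raw counts; these estimates were already whole, so rounding changed nothing, and the same test was kept.

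Genes were kept with filterByExpr (minimum 10), scaled by TMM and tested with edgeR 4.0.16 in R 4.3.3 by the quasi-likelihood F test, two-sided, with Benjamini-Hochberg adjustment over 20472 genes and a threshold of 0.05. SEs were derived from the F statistic. DESeq2 1.42.0, limma-voom 3.58.1, other scalings and filters and 6 fits without 1 library were alternatives. The code was tested on simulated data. Exon lengths and overlaps came from GENCODE on GRCm38, by gene identifier (31 of 31 matched), and served only for length and neighbours; merged exons can overstate the length of the transcript in use. Promoters came from RefSeq on GRCm38.p6. Where a symbol labels several rows, the row of larger total stands for it in the lists.

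The integrin rows, their classes and all lists were chosen with earlier results of these data known. Values in every library are given for the muscle class, for rows with an unadjusted p under 0.05 or no overlap, and for the 2 rows of highest CPM per class. Of each other list, up to 4 genes of lowest p are named, and further genes were named after their values were seen. One ligand gene that this rule names is not reported here. Counting error was small for most integrin rows, so precision rests mainly on how far libraries of a group differ. The labels give each library its own number but do not say in words that these are separate animals, and if they are not, p-values reflect technical spread alone. Replicates were numbered in record order, and the numbers pair no libraries. Protein sequences were not used here.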

Additional observations from a re-analysis of the deposited data

How the results depend on the processing

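Over 13 alternatives, edgeR under other scalings, filters and left-out libraries called 0 integrin rows in each, limma-voom called 0 and DESeq2 called 4. Over all genes DESeq2 called 505 (317 lower, 188 higher) and limma-voom 0 where edgeR called 1, and the 6 fits without 1 library called 0 to 1. Without 1 library, integrin rows at an unadjusted p under 0.05 numbered 8 to 10. Rows without overlap numbered 13 to 18 in these fits, where non-overlap is easier to reach because 1 group is smaller. Signs turned only for log2 fold changes near 0 or set by 1 library. Without 1 library these ran from -0.54 to 0.46 for Itga8, -0.79 to 0.41 for Itgal, -0.26 to 0.13 for Itgb3, -0.18 to 0.09 for Itgb3bp, -0.72 to 0.13 for Itgb8, -0.69 to 0.72 for Itgb4 and -0.17 to 0.72 for Itga10. The muscle rows ran from -0.31 to 0.01 for Itga7, -0.20 to 0.07 for Itgb1 and -0.19 to 0.15 for Itgb1bp2, and Esam from -0.09 to 0.37. The log2 ratio difference ran from -0.12 to 0.08 for Itga7 to Itgb1 and -0.03 to 0.87 for Itgal to Itgb2. In limma-voom Itga8 was at 0.00 and Itgal at -0.17, with library totals Itga8 was at 0.10 and Itgb3 at 0.01, and with at least 1 CPM in 3 libraries Itga8 was at 0.02. The cause of these turns was not tested beyond the libraries named. No paired analysis was possible because the labels give the groups no shared replicate numbers.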

Other observations

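Counter-receptors of leukocyte integrins on other cells mostly overlapped between the groups. Of 10 genes 7 were tested, 6 lower and 1 higher, with a median log2 fold change of -0.10 and 0 at an unadjusted edgeR p under 0.05. Icam1, the ligand of the β2 integrins on endothelium, was at 11.9, 14.5 and 13.6 CPM in vehicle hearts and 7.30, 9.70 and 12.7 CPM under setanaxib (log2 fold change -0.43, SE 0.21). Vcam1, the α4 ligand, was at 19.1, 21.6 and 21.7 CPM in vehicle hearts and 6.77, 13.4 and 25.8 CPM under setanaxib, so that setanaxib replicate 3 was the highest and the other setanaxib libraries the lowest. Its log2 fold change was -0.44 (SE 0.45), and -1.04 without that library. Icam2 was lower without overlap at -0.19 (SE 0.14), and Esam had 0.21 (SE 0.22). Icam4, Madcam1 and Cdh1 were listed at 0 in all 6 libraries.

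Lateral partners of integrins in the membrane, the tetraspanins and their neighbours, showed no split by group. Of 8 genes 4 were lower and 4 higher (median log2 fold change -0.02), with 0 at an unadjusted edgeR p under 0.05 and 0 without overlap. Cd151, which binds laminin-binding integrins, was at 144, 171 and 148 CPM in vehicle hearts and 139, 152 and 109 CPM under setanaxib (log2 fold change -0.21, SE 0.15). Cd63, Slc3a2 and Cd81 had -0.26, 0.28 and -0.11.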
